A study of Mus musculus with 10 samples.

Results

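Respiratory chain genes, those of complexes I to IV and of ATP synthase (complex V), were followed in livers of Nrf2Act-hep mice and wild-type (WT) mice. They were taken by symbol (mt-Nd, mt-Co, mt-Cytb, mt-Atp, Nduf, Sdha to Sdhd, Sdhaf, Uqcr, Cyc1, Atp5 and Cox4 to Cox8), leaving out pseudogenes. That gave 105 of the 18869 genes in the table, 11 encoded in mitochondrial DNA and 94 in the nucleus. Of the 94 members with enough reads for a test, none was called different between genotypes, against 4.64% of all 8075 genes tested. Outside the complexes, Gpd2, Slc25a4 and Coq8a were lower and Ucp2, Coq7 and Coq8b were higher in Nrf2Act-hep livers. Coq8b had enough reads for a test only through the Nrf2Act-hep libraries, where it was higher. The calls of Gpd2, Coq8a and Coq7 held when any single library was left out, and those of Slc25a4, Ucp2 and Coq8b did not. The name-based rule also takes in 8 assembly factors of complex I (Ndufaf) and 4 of complex II (Sdhaf), which are given apart. The 5 Nrf2Act-hep livers came from C57BL/6 mice labelled as having NRF2 activated specifically in the liver, and the 5 WT livers from C57BL/6 mice. All were 6 weeks old, ate regular chow and were fasted for 15 h before collection. How NRF2 was activated is not stated in the labels. The letter in the titles is M for Nrf2Act-hep replicates 6, 7 and 8 and WT replicates 1 and 2, and F for Nrf2Act-hep replicates 9 and 10 and WT replicates 3, 4 and 5. The labels do not say that each library is a separate mouse, so p-values measure only the spread between libraries, part of which may be technical.

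The respiratory chain moves electrons from NADH and succinate through complexes I to IV to oxygen and pumps protons, and ATP synthase uses the proton gradient to make ATP. Its subunits come from 2 genomes: the mitochondrial one encodes core membrane subunits of complexes I, III, IV and V, and every complex II subunit is nuclear. The hepatocyte is rich in mitochondria and relies on them for fatty acid oxidation and gluconeogenesis during a fast. NRF2, the product of Nfe2l2, drives antioxidant and detoxification genes. It is a different protein from the nuclear respiratory factors NRF1 and GABP (the second also called NRF-2), which act on respiratory genes.

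The libraries hold single tags from near the 3′ ends of polyadenylated RNA, given as CPM, counts scaled to a common total per library. One transcript gives about one tag, so no length correction was applied. CPM values are TMM-scaled and given with the SD over 5 libraries per genotype, and log2 differences, Nrf2Act-hep minus WT, with their standard error. Depth was 2167528 to 2806670 reads in Nrf2Act-hep libraries and 1267745 to 2287727 in WT libraries. A gene with no read could have stood at up to 1.07 to 1.38 CPM in a Nrf2Act-hep library and 1.31 to 2.37 CPM in a WT library, which is 3 reads and covers counting error only. The labels were checked on NRF2 targets. Nqo1, a quinone reductase, averaged 36.9 ± 13.3 CPM in Nrf2Act-hep livers and 3.35 ± 1.62 CPM in WT livers, a log2 difference of 3.07 ± 0.30 (adjusted p = 3.43e-06). Of the listed targets 6 of 6 were called higher, where 2.79% of all genes tested were. The list was chosen with earlier results of these data known, so it is not an independent check. The message of Nfe2l2 itself averaged 40.8 ± 4.16 CPM in Nrf2Act-hep livers and 59.8 ± 11.99 CPM in WT livers (log2 difference -0.47 ± 0.13, adjusted p = 0.0436, lost under 12 of 22 alternatives, with adjusted p up to 0.385), and that of Keap1, its repressor, 51.4 ± 9.95 CPM in Nrf2Act-hep livers and 46.4 ± 3.59 CPM in WT livers (log2 difference 0.12 ± 0.14, adjusted p = 0.733). Xist and Ddx3y matched the letters M and F in all 10 libraries. The 7 hepatocyte markers summed to 34041 ± 3537 CPM in Nrf2Act-hep livers and 45586 ± 3703 CPM in WT livers. The most abundant weigh most in this sum, as their means ran from 368 to 25544 CPM. Singly, 2 log2 differences were above 0 and 5 below, with a median of -0.13 and a highest of 0.21. Of the 7, 1 passed the test, Apoa1, which was lower in Nrf2Act-hep livers. In bulk tissue, fewer cells of a type and less RNA per cell cannot be told apart. For Kupffer, endothelial, stellate, bile duct, lymphoid, neutrophil, erythroid, fat and pancreatic cells, 35 markers were in the table. Of these 28 were tested and 1 passed, where 4.64% of all genes tested were called. That marker, Cela1, a pancreatic elastase, averaged 7.74 ± 2.41 CPM in Nrf2Act-hep livers and 15.7 ± 6.01 CPM in WT livers.

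Several mitochondrial mRNAs share their 3′ ends with copies of mitochondrial DNA in the nuclear genome. A run of annotated pseudogenes on chromosome 1 copies the stretch from mt-Co1 to the first part of mt-Nd4. The sequences, from GENCODE transcripts on GRCm38, are the last 75 bases that mt-Co1 and mt-Co2 share with their copies and the last 75 of mt-Nd4. They are shown because tags come from near these ends.
mt-Co1 (chrM:6798-6872, plus strand): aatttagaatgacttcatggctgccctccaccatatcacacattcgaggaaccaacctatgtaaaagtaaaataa
Gm29216 (chr1:24615706-24615780, minus strand): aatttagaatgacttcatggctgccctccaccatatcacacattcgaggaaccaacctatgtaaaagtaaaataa
mt-Co2 (chrM:7619-7693, plus strand): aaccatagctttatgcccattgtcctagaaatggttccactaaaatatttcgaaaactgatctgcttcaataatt
Gm28661 (chr1:24614885-24614959, minus strand): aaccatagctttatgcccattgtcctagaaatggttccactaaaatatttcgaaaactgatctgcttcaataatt
mt-Nd4 (chrM:11470-11544, plus strand): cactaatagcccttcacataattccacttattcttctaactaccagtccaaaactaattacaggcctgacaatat
Both pairs are the same in every base shown. mt-Co2 matches its copy over all the 681 bases they share. In mt-Co1 the last 479 bases are identical to Gm29216, and the 1 mismatch of the 483 shared bases, A1066T (mitochondrial base first, counted from the first base of mt-Co1), lies upstream of them. The last 502 bases of mt-Nd4, whose end is shown, lie outside its copy Gm28439, which matches the first 876 bases.

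Of the mRNAs with an identical copy up to or close to their 3′ ends, 4 had almost no reads and mt-Co1 had many. Over all 10 libraries mt-Co2 had 1 read, mt-Atp6 4, mt-Nd3 8 and mt-Nd4l 2, and the 3 of their copies in the table had between 1 and 21. mt-Co3 and mt-Atp8 are not among the genes in the table. mt-Co1 had 50653 reads, although its end is copied as fully as that of mt-Co2. mt-Nd4, with its end outside the copy, had 366955. How reads with several possible origins were counted is not given in the sources used here, so the levels of mt-Nd2, mt-Co1, mt-Co2, mt-Atp6, mt-Nd3 and mt-Nd4l are uncertain in both genotypes. Near-identical copies are also annotated for the ends of mt-Nd2, Gm13339 with 50 reads in all, and again of mt-Co1, Gm13340 with 270 reads, while Gm29216 had 3. The 7 mitochondrial mRNAs with enough reads for a test are mt-Nd1, mt-Nd2, mt-Nd4, mt-Nd5, mt-Nd6 (complex I), mt-Cytb (complex III) and mt-Co1 (complex IV).

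None of these 7 mRNAs was called different between genotypes. mt-Nd1 had 9866, 10861, 12509.6, 9816 and 13061 CPM in Nrf2Act-hep replicates 6 to 10, against 9676, 12999.99, 11383, 15926 and 9557 CPM in WT replicates 1 to 5. Nrf2Act-hep replicates 8 and 10 and WT replicates 2 and 4 were the highest of their genotypes, and the groups overlapped. mt-Nd1 encodes a membrane subunit next to the quinone site of complex I, and its log2 difference was -0.05 ± 0.16 (adjusted p = 0.907). mt-Nd2 had 22261, 22566, 29659.98, 18913 and 28370.3 CPM in Nrf2Act-hep livers, against 19621, 31784, 24416, 32465 and 20032 CPM in WT livers (log2 difference -0.07 ± 0.17, adjusted p = 0.893). mt-Nd4 had 13895, 16583, 26108, 12947 and 26499.8 CPM in Nrf2Act-hep livers, against 15434, 20075, 15357, 21439.8 and 11063 CPM in WT livers (log2 difference 0.16 ± 0.24, adjusted p = 0.813). Both encode antiporter-like proton-pumping subunits, and in both the same 4 libraries stood above the rest. For mt-Nd4 Nrf2Act-hep replicates 8 and 10 exceeded every WT library, and the other 3 lay within the WT range. mt-Nd5, the third antiporter-like subunit, had 5779, 5751, 8152, 4054 and 7209 CPM in Nrf2Act-hep livers, against 4181, 6113, 5799.8, 10379 and 5632 CPM in WT livers (log2 difference -0.01 ± 0.24, adjusted p = 0.996).

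mt-Nd6 is the only mitochondrial mRNA encoded on the light strand. It had 21.3, 26.1, 28.7, 18.2 and 24.2 CPM in Nrf2Act-hep livers, against 22.3, 45.2, 19.7, 39.5 and 20.5 CPM in WT livers. WT replicates 2 and 4 lay above all 5 Nrf2Act-hep libraries and the other 3 WT libraries lay among them. Its difference of -0.29 ± 0.21 (adjusted p = 0.541) had the 95% interval -0.73 to 0.15. With 523 reads in all, mt-Nd6 was the least covered of the 7. mt-Cytb encodes the cytochrome b core of complex III and had 9739.8, 12038, 13001, 10697 and 14393 CPM in Nrf2Act-hep livers, against 9612, 12248, 9756, 13902 and 9572 CPM in WT livers (log2 difference 0.14 ± 0.15, adjusted p = 0.721). mt-Co1 encodes the catalytic subunit of cytochrome oxidase and had 2363, 2236, 2580.4, 2177 and 2946 CPM in Nrf2Act-hep livers, against 1738, 2537, 2110.3, 3493 and 2358 CPM in WT livers (log2 difference 0.08 ± 0.15, adjusted p = 0.862). The highest library of mt-Cytb was Nrf2Act-hep replicate 10 and that of mt-Co1 was WT replicate 4, and the genotypes overlapped for both.

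**Figure D1:**
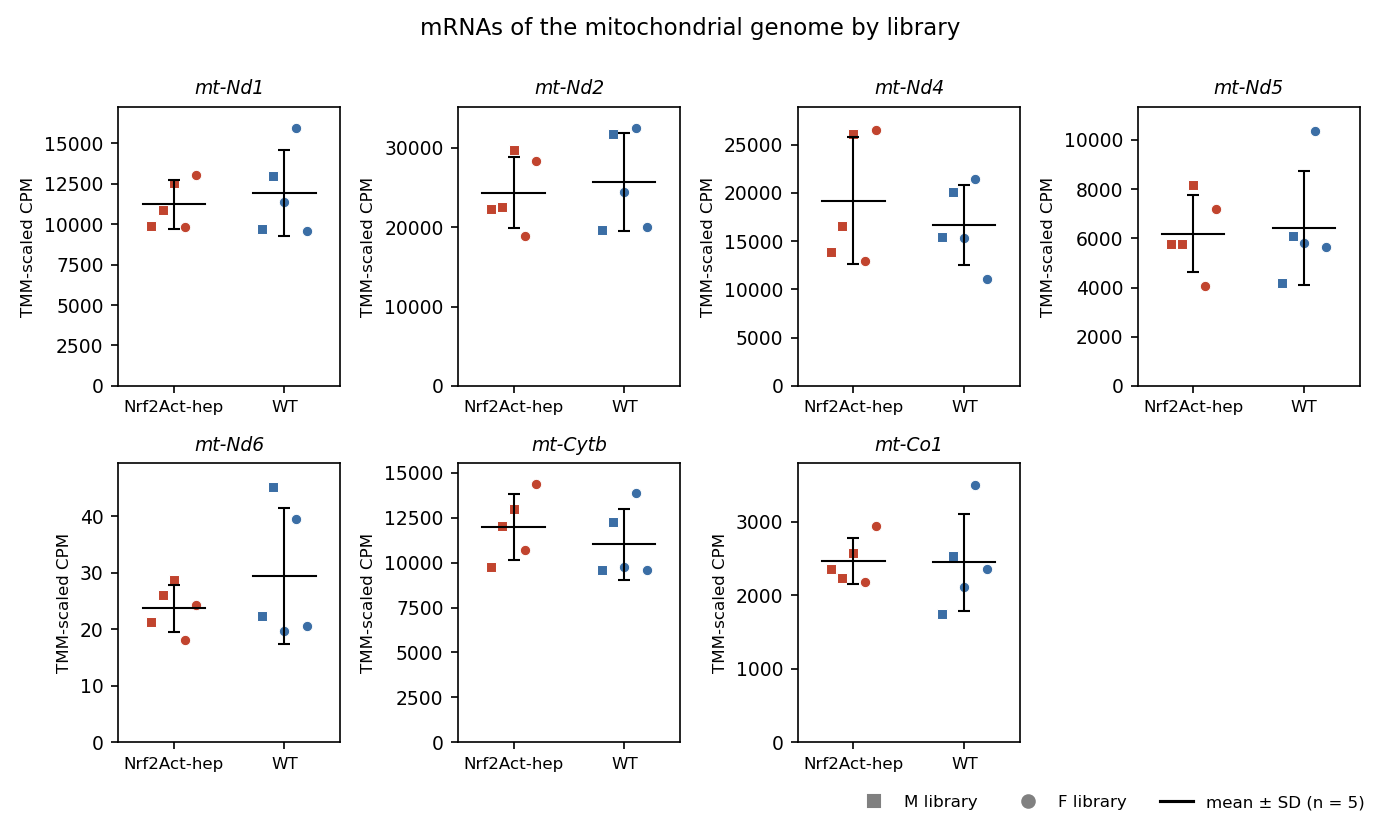
TMM-scaled CPM of the 7 tested mitochondrial mRNAs in each library (squares M, circles F), with the mean ± SD of 5 libraries per genotype. Nrf2Act-hep and WT livers overlap in all 7 panels, and a pair of libraries stands high within each genotype.

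The mitochondrial mRNAs moved together from library to library, and did so inside each genotype. Their sum was 63927, 70064, 92039.7, 58622 and 92504 CPM in Nrf2Act-hep replicates 6 to 10, against 60287, 85803, 68842, 97645 and 58234 CPM in WT replicates 1 to 5. Nrf2Act-hep replicates 8 and 10 were the highest pair of their genotype for 6 of the 7 mRNAs, and WT replicates 2 and 4 for 7 of 7. The group sums were 75431 ± 15898 CPM in Nrf2Act-hep livers and 74162 ± 17041 CPM in WT livers (SD, n = 5 each). The median coefficient of variation of the 7 mRNAs was 17.4% in Nrf2Act-hep livers and 24.9% in WT livers, where read counting alone gives 0.601% and 0.747%. For the 87 tested nuclear members the median was 11.9% in Nrf2Act-hep livers and 13.5% in WT livers, of which counting alone gives 6.46% and 7.75%.

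The 4 libraries high in mitochondrial mRNA were also the lowest of their genotypes in Gm42418, a locus that overlaps a ribosomal RNA repeat. Gm42418 took 12.9% and 11.1% of the reads in Nrf2Act-hep replicates 8 and 10, against 15.8% to 18.9% in the other 3 Nrf2Act-hep libraries. It took 14.0% and 14.1% in WT replicates 2 and 4, against 14.7% to 19.3% in the other 3 WT libraries. Mitochondrial mRNA took 6.21% to 9.88% of the reads in Nrf2Act-hep libraries and 5.71% to 8.81% in WT libraries. The part of ribosomal read share in the mitochondrial mRNA values was not tested. The ratio of summed mitochondrial to summed nuclear members, which does not depend on scaling, was 6.00, 6.51, 8.17, 5.13 and 8.72 in Nrf2Act-hep replicates 6 to 10, against 5.67, 7.72, 6.01, 8.11 and 5.37 in WT replicates 1 to 5. It too was highest in the same 4 libraries, and the genotypes overlapped.

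**Figure D2:**
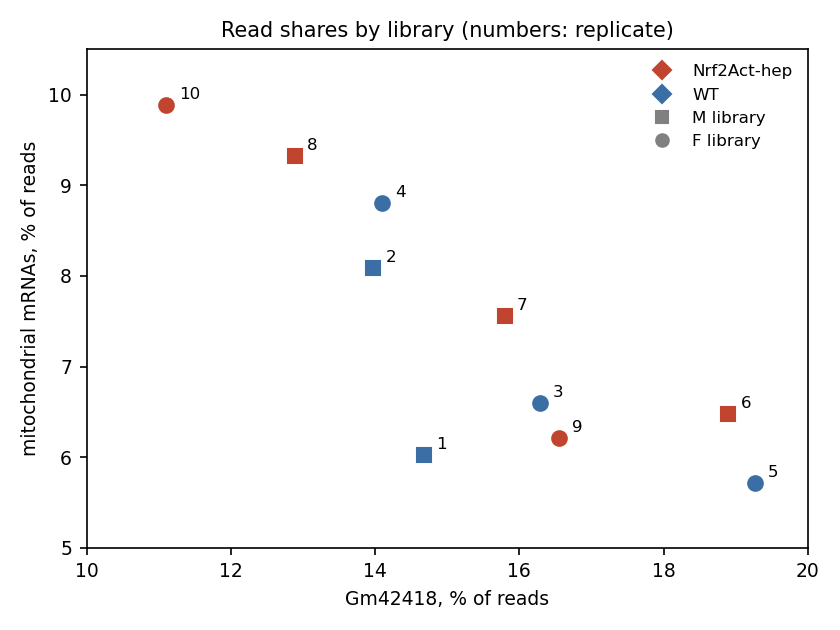
Share of reads from mitochondrial mRNAs (vertical, %) against the share from Gm42418 (horizontal, %) in each library, numbered by replicate. In both genotypes the pair lowest in Gm42418, Nrf2Act-hep 8 and 10 and WT 2 and 4, is the pair highest in mitochondrial mRNA.

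Both mitochondrial ribosomal RNAs, products of the same genome, had lower means in Nrf2Act-hep livers but neither passed the test. mt-Rnr2, the large ribosomal RNA, had 149428, 126137, 151691, 145714 and 144591 CPM in Nrf2Act-hep livers, against 163658, 207794, 170854, 216149 and 166360.5 CPM in WT livers. All 5 Nrf2Act-hep libraries lay below all 5 WT libraries. The log2 difference was -0.36 ± 0.14 with the 95% interval -0.65 to -0.06 and an adjusted p of 0.200, which ranged from 0.0443 (no filter on low genes, the only one of 22 alternatives under the threshold) to 0.680. mt-Rnr1, the small ribosomal RNA, averaged 63915 ± 8492 CPM in Nrf2Act-hep livers and 73719 ± 11357 CPM in WT livers, with a log2 difference of -0.21 ± 0.15 (adjusted p = 0.541). The libraries select for poly(A), so rRNA tags need not follow rRNA amounts.

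Across all members tested, 94 of the 105, none was called higher or lower by limma at an adjusted p under 0.05. Of all genes tested 4.64% were called, 2.79% higher and 1.86% lower in Nrf2Act-hep livers. At an unadjusted p under 0.05 there were 7 of 94 members, 4 higher and 3 lower, against 16.2% of all genes. No member had groups without overlap, against 5.14% of all genes. edgeR and DESeq2 also called 0 of 94, with 5 and 2 at an unadjusted p under 0.05. The log2 differences ran from -0.29 to 0.77 with a median of -0.02, and 43 were above 0 and 51 below. The median over all genes tested was 0.01. Without TMM both medians moved up, that of all genes to 0.13 and that of the members to 0.11.

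The precision sets what could have been seen. The standard error of a member's log2 difference had a median of 0.13, against 0.19 over all genes. The 95% interval lay within 0.5 of 0 on the log2 scale for 74 of the 94 members and within 1 of 0 for 92. In simulated data on 8075 genes the genotype test found 26% of true changes of 0.5 (log2) and 72% of true changes of 1. These changes were planted in genes drawn at random from all those tested, so the shares need not hold for the members. A missed call therefore does not show that a member's level was the same in both genotypes, but a change past 1 on the log2 scale lay outside the interval of all but 2 members, Ndufs5 and Atp5s. These 2 are the least abundant in the tests of their complexes, below 10 CPM in every library. Most of their WT libraries lay below the 4.50 CPM asked for a test. Both were tested because of their Nrf2Act-hep libraries, the group with the higher mean.

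**Figure D3:**
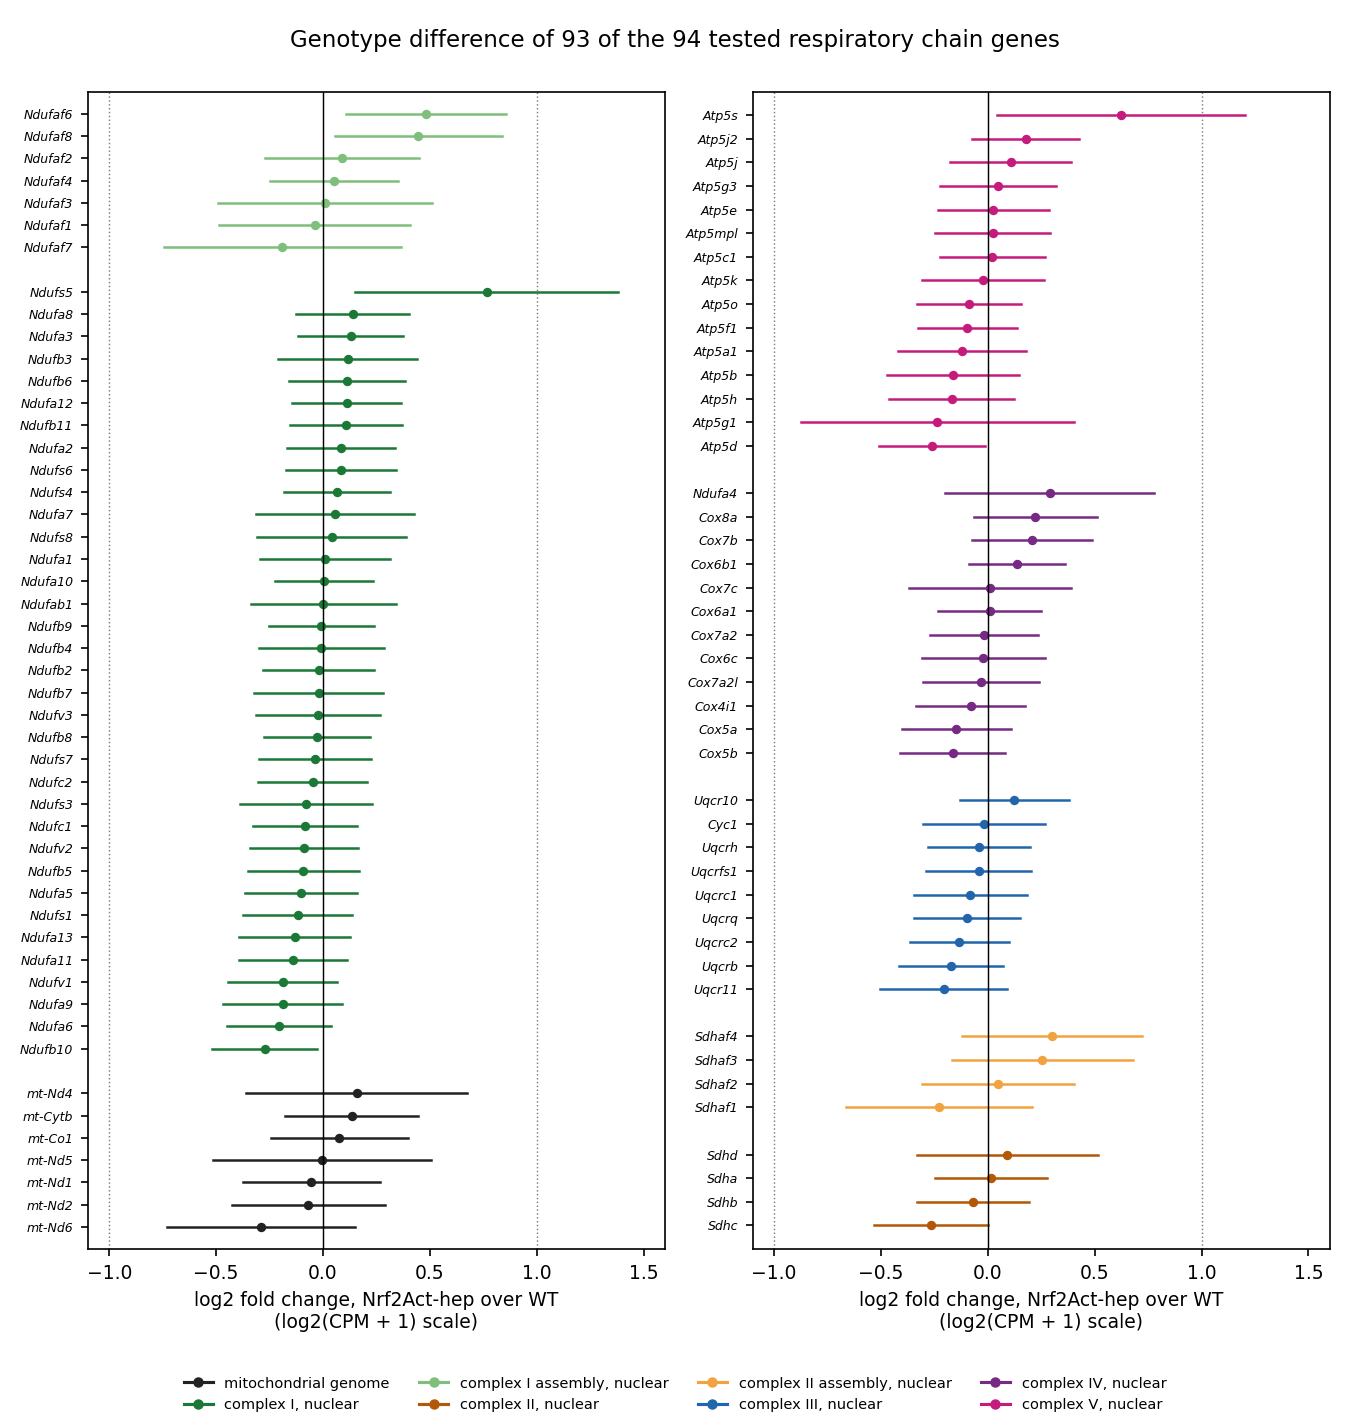
Log2 fold change of Nrf2Act-hep over WT livers with its 95% interval for 93 of the 94 tested members, grouped by genome of origin and complex. Dotted lines mark -1 and 1, and of those drawn, the intervals of Ndufs5 and Atp5s alone pass 1.

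Complex I, the NADH dehydrogenase, had 36 nuclear subunits in the table, all tested, with 16 differences above 0 and 20 below and a median of -0.01. Their tags summed to 3423 ± 176 CPM in Nrf2Act-hep livers and 3534 ± 199.9 CPM in WT livers. The 2 most abundant were the accessory subunits Ndufa6, which averaged 256 ± 22.9 CPM in Nrf2Act-hep livers and 298 ± 26.9 CPM in WT livers (log2 difference -0.20 ± 0.12, adjusted p = 0.404), and Ndufb9, which averaged 200.04 ± 21.2 CPM in Nrf2Act-hep livers and 205 ± 23.5 CPM in WT livers (log2 difference -0.01 ± 0.12, adjusted p = 0.987). The most negative difference was that of Ndufb10, an accessory subunit of the membrane arm. It had 49.8, 51.9, 53.3, 60.9 and 51.7 CPM in Nrf2Act-hep livers, against 60.8, 67.8, 63.04, 65.03 and 70.8 CPM in WT livers. Of the Nrf2Act-hep libraries 4 lay below all WT libraries and replicate 9 reached WT replicate 1, and the difference was -0.27 ± 0.12 (adjusted p = 0.247). The most positive was that of Ndufs5, an accessory subunit on the intermembrane space side. It had 4.68, 6.03, 8.20, 4.37 and 7.39 CPM in Nrf2Act-hep livers, against 4.05, 2.51, 2.55, 5.23 and 1.78 CPM in WT livers. Nrf2Act-hep replicates 7, 8 and 10 exceeded every WT library, and the difference of 0.77 ± 0.30 (adjusted p = 0.175) had the 95% interval 0.15 to 1.38. Its tags are few, and counting alone gives a coefficient of variation of 25.8% in Nrf2Act-hep livers and 43.9% in WT livers. All WT libraries but replicate 4 lay below the 4.50 CPM asked for a test. Ndufs5 was therefore tested because of its Nrf2Act-hep libraries, the group where it was higher. Ndufs5 also has a processed pseudogene, BC002163, which had 2 reads in all.

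Of the 8 complex I assembly factors 7 were tested, and 2 of these were among the members with an unadjusted p under 0.05. Ndufaf6 is needed for making the ND1 part of complex I. It had 21.7, 21.7, 17.8, 18.2 and 25.9 CPM in Nrf2Act-hep livers, against 12.8, 17.6, 11.5, 18.00 and 14.7 CPM in WT livers. Nrf2Act-hep replicates 6, 7, 9 and 10 lay above all WT libraries and replicate 8 lay below WT replicate 4. The log2 difference of 0.48 ± 0.18 had the lowest adjusted p of any member, 0.162. Ndufaf8 had 25.5, 32.97, 46.5, 39.7 and 38.6 CPM in Nrf2Act-hep livers, against 20.3, 29.3, 23.6, 42.97 and 23.6 CPM in WT livers (log2 difference 0.44 ± 0.19, adjusted p = 0.232). Only Nrf2Act-hep replicate 8 exceeded the highest WT library. Ndufaf4, the most abundant of the 7, averaged 83.02 ± 14.8 CPM in Nrf2Act-hep livers and 82.7 ± 15.8 CPM in WT livers (log2 difference 0.05 ± 0.14, adjusted p = 0.907). Ndufaf7, an assembly factor with methyltransferase activity, averaged 6.57 ± 2.82 CPM in Nrf2Act-hep livers and 6.61 ± 2.24 CPM in WT livers (log2 difference -0.19 ± 0.27, adjusted p = 0.790), and the end of its transcript matches 130 other annotated genes, so its reads are uncertain.

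Complex II, succinate dehydrogenase, also serves the citric acid cycle, and its 4 nuclear subunits summed to 422 ± 22.7 CPM in Nrf2Act-hep livers and 439 ± 47.8 CPM in WT livers. Sdha, the flavoprotein that oxidises succinate, averaged 164 ± 15.4 CPM in Nrf2Act-hep livers and 159.8 ± 28.1 CPM in WT livers (log2 difference 0.01 ± 0.13, adjusted p = 0.971). Sdhb, the iron-sulfur subunit, averaged 161 ± 18.9 CPM in Nrf2Act-hep livers and 168 ± 22.04 CPM in WT livers (log2 difference -0.07 ± 0.13, adjusted p = 0.848). Sdhc, a membrane anchor, had 80.5, 84.8, 72.9, 94.8 and 66.5 CPM in Nrf2Act-hep livers, against 93.3, 109, 103, 81.3 and 89.5 CPM in WT livers. Nrf2Act-hep replicates 6, 8 and 10 lay below all WT libraries and the other 2 lay within the WT range, with a difference of -0.27 ± 0.13 (adjusted p = 0.306). Sdhd, the other anchor, averaged 16.9 ± 4.61 CPM in Nrf2Act-hep livers and 15.9 ± 3.32 CPM in WT livers (log2 difference 0.09 ± 0.20, adjusted p = 0.877). Among the 4 assembly factors, Sdhaf4 averaged 21.3 ± 5.06 CPM in Nrf2Act-hep livers and 17.4 ± 4.09 CPM in WT livers (log2 difference 0.30 ± 0.20, adjusted p = 0.502), Sdhaf2, which attaches flavin to SDHA, averaged 14.9 ± 1.32 CPM in Nrf2Act-hep livers and 14.5 ± 1.59 CPM in WT livers (log2 difference 0.05 ± 0.17, adjusted p = 0.930), and Sdhaf1, which brings iron-sulfur clusters to SDHB, averaged 8.24 ± 1.33 CPM in Nrf2Act-hep livers and 10.1 ± 2.07 CPM in WT livers (log2 difference -0.23 ± 0.21, adjusted p = 0.649).

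Complex III passes electrons from ubiquinol to cytochrome c. Its 9 nuclear members summed to 1441 ± 72.8 CPM in Nrf2Act-hep livers and 1529 ± 67.1 CPM in WT livers, with 8 differences below 0 and 1 above, a median of -0.08 and no call. On the deposited scale the log2 difference of the sums was 0.04, against -0.09 on the TMM scale. Uqcrq, a small accessory subunit, averaged 312 ± 41.7 CPM in Nrf2Act-hep livers and 333 ± 19.4 CPM in WT livers (log2 difference -0.10 ± 0.12, adjusted p = 0.757) and Uqcrh, the hinge protein, 276 ± 15.7 CPM in Nrf2Act-hep livers and 295 ± 42.1 CPM in WT livers (log2 difference -0.04 ± 0.12, adjusted p = 0.907). The extremes were Uqcr11 at -0.21 ± 0.14 (adjusted p = 0.513) and Uqcr10 at 0.12 ± 0.12 (adjusted p = 0.676). Uqcr11 had 72.4, 53.1, 62.4, 62.9 and 47.6 CPM in Nrf2Act-hep livers, against 62.2, 65.3, 89.1, 59.2 and 69.04 CPM in WT livers, and 2 Nrf2Act-hep libraries, replicates 7 and 10, lay below the WT range.

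Complex IV, cytochrome c oxidase, had 16 nuclear members in the table, of which 12 were tested, with 6 differences above 0 and 6 below. They summed to 2494 ± 125 CPM in Nrf2Act-hep livers and 2468 ± 196 CPM in WT livers. Cox6c averaged 510.1 ± 77.6 CPM in Nrf2Act-hep livers and 520.4 ± 84.3 CPM in WT livers (log2 difference -0.02 ± 0.14, adjusted p = 0.967), and Cox7b averaged 319 ± 30.6 CPM in Nrf2Act-hep livers and 289 ± 69.3 CPM in WT livers (log2 difference 0.21 ± 0.14, adjusted p = 0.488). Cox5b, a zinc-binding subunit, had 102, 102, 97.5, 75.99 and 98.1 CPM in Nrf2Act-hep livers, against 102, 101, 108, 116 and 99.3 CPM in WT livers (log2 difference -0.16 ± 0.12, adjusted p = 0.538). Nrf2Act-hep replicate 9 stood below all other libraries. Ndufa4, named for complex I but a subunit of complex IV, had 177, 217, 128, 229.7 and 108 CPM in Nrf2Act-hep livers, against 116, 169, 113, 108 and 171 CPM in WT livers. Nrf2Act-hep replicates 6, 7 and 9 exceeded every WT library and replicate 10 stood at the lowest WT value. The Ndufa4 difference was 0.29 ± 0.23 with the 95% interval -0.20 to 0.78 and an adjusted p of 0.585.

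The tissue isoforms of complex IV were those of liver. Cox7a2 averaged 208 ± 15.6 CPM in Nrf2Act-hep livers and 212 ± 28.4 CPM in WT livers and Cox6a1 averaged 260.2 ± 21.5 CPM in Nrf2Act-hep livers and 258 ± 23.4 CPM in WT livers. The heart and muscle forms Cox7a1 and Cox6a2 had 6 and 1 reads in all Nrf2Act-hep libraries and 10 and 0 in all WT libraries. Cox6b1, the somatic form, averaged 162 ± 6.90 CPM in Nrf2Act-hep livers and 147 ± 5.23 CPM in WT livers, and the testis form Cox6b2 had 11 reads in Nrf2Act-hep and 25 in WT libraries. Ndufa4l2, known as a hypoxia-induced relative of Ndufa4, had 2 reads in each genotype. Cox4i2, Cox7b2, Cox8b and Cox8c are not among the genes in the table. These isoforms were picked out after their values were seen.

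ATP synthase had 17 nuclear members in the table, of which 15 were tested, with 7 differences above 0 and 8 below. They summed to 2918 ± 69.2 CPM in Nrf2Act-hep livers and 3021 ± 172 CPM in WT livers. Atp5g3, one of the genes for the membrane c ring, averaged 582 ± 94.3 CPM in Nrf2Act-hep livers and 552 ± 54.99 CPM in WT livers (log2 difference 0.05 ± 0.13, adjusted p = 0.901). Atp5a1, the alpha subunit of the catalytic head, averaged 472 ± 86.8 CPM in Nrf2Act-hep livers and 508 ± 85.3 CPM in WT livers (log2 difference -0.12 ± 0.14, adjusted p = 0.746). Atp5d, the delta subunit of the central stalk, had 157, 129, 132, 160.4 and 118 CPM in Nrf2Act-hep livers, against 171, 153, 166, 171 and 171 CPM in WT livers. Nrf2Act-hep replicates 7, 8 and 10 lay below all WT libraries, replicates 6 and 9 lay above WT replicate 2, and the difference was -0.26 ± 0.12 (adjusted p = 0.278). Atp5s, the coupling factor B gene, had 8.94, 8.04, 6.38, 7.73 and 6.16 CPM in Nrf2Act-hep livers, against 4.73, 3.35, 9.55, 4.06 and 2.67 CPM in WT livers. WT replicate 3 was the highest of the 10 libraries and the other 4 WT libraries lay below every Nrf2Act-hep library, with a difference of 0.62 ± 0.28 (adjusted p = 0.267). Most WT libraries lay below the 4.50 CPM asked for a test, so Atp5s was tested because of its Nrf2Act-hep libraries. Atp5l and Atp5g2 had too few reads for a test, 16 and 18 in Nrf2Act-hep and 6 and 17 in WT libraries, and the end of Atp5l matches 12 other annotated genes.

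**Figure D4:**
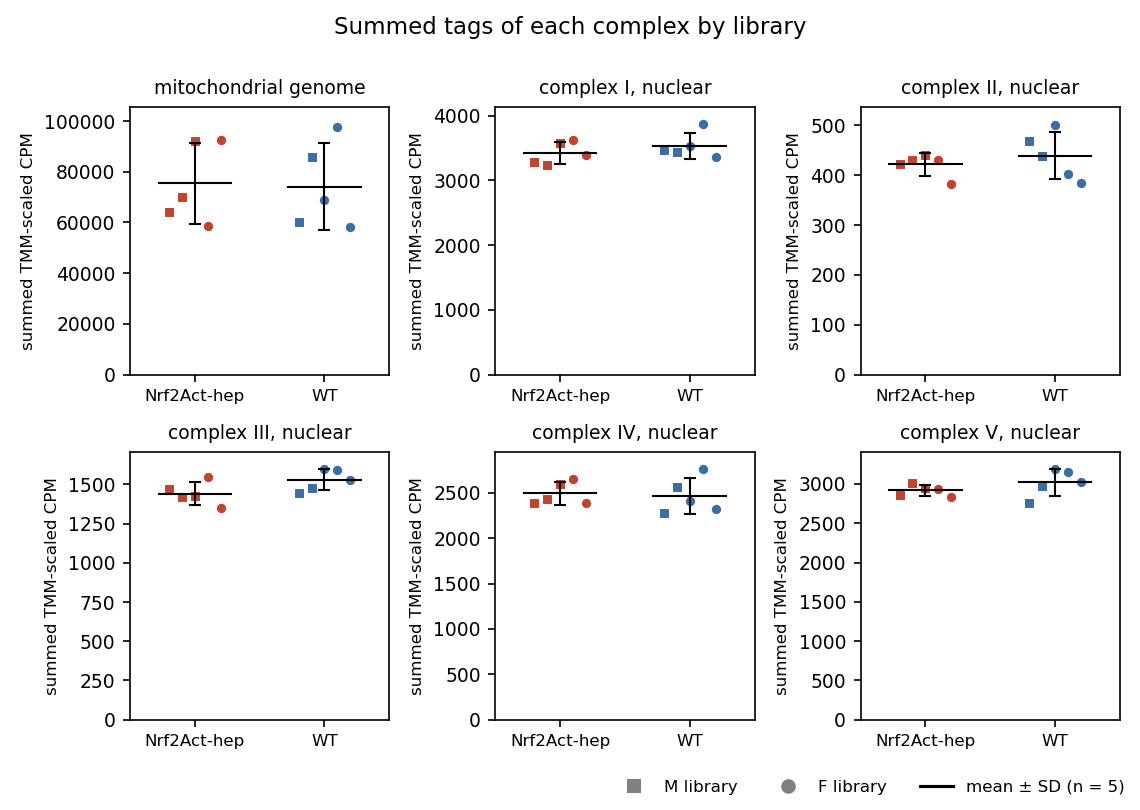
Summed TMM-scaled CPM of the mitochondrial mRNAs and of the nuclear members of each complex in each library (squares M, circles F), with the mean ± SD of 5 libraries per genotype. The nuclear sums of both genotypes overlap in every panel, and the mitochondrial sum shows the widest spread between libraries.

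The nuclear members as a sum varied little from library to library. Their sum was 10649, 10763, 11261, 11427 and 10611 CPM in Nrf2Act-hep replicates 6 to 10, against 10636, 11109, 11457, 12048 and 10841 CPM in WT replicates 1 to 5. The log2 difference of the mean sums was -0.04, and on the deposited scale it was 0.09, where the median of all genes stood at 0.13. Of the 94 nuclear members 30 had a transcript end near-identical to part of another annotated gene. The 28 of these tested had a median log2 difference of -0.02, against -0.01 for the 59 tested members without such a match. Matches were not sorted into copies elsewhere and genes that overlap the member. The genotype difference itself was compared between M and F libraries for all 94 tested members, and none was called, with 0 at an unadjusted p under 0.05, against 7.13% of all genes at that unadjusted p and 0.0248% called (2 of 8075). In the simulated data this interaction test found 0% of true changes of 0.5 (log2) and 16% of those of 1, in genes drawn from all those tested. The median log2 difference of the members was 0.02 in M libraries alone and -0.05 in F libraries alone.

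The promoters of the nuclear members were read for known motifs. RefSeq windows (GRCm38.p6) of 300 bases, 250 before and 50 after the start, were found for 78 of the 94 nuclear members, 83 windows in all. The nuclear respiratory factor 1 motif, GCGCA and GCGC parted by any 1 base, stood in 26.5% of the member windows, against 4.60% of all 32851 windows. The GABP core CCGGAAG stood in 25.3% of the member windows, against 8.86% of all windows. The core of the antioxidant response element bound by NRF2, TGACNNNGC, stood in 15.7% of the member windows, against 12.4% of all windows. The estrogen-related receptor site TCAAGGTCA stood in 2.41% of the member windows, against 0.423% of all. Both strands were searched, a match is not a bound site, and these shares were not tested. Cox6a1 and Atp5k are shown because each holds the first 2 motifs, and Ndufa7 because it holds the antioxidant response core, with the matches in capitals.
Cox6a1 (chr5:115348909-115349208, minus strand): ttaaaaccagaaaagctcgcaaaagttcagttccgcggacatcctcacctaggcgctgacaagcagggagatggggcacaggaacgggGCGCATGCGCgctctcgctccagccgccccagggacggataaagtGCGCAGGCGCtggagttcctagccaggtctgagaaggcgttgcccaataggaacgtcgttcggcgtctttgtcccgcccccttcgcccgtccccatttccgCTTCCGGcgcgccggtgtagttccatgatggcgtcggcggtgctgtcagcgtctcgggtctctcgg
Atp5k (chr5:108434350-108434649, minus strand): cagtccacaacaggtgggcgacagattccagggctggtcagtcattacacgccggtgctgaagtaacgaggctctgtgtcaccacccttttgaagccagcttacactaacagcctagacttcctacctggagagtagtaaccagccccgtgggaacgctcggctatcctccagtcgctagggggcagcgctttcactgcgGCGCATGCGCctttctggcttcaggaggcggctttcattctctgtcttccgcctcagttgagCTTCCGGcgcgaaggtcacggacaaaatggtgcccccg
Ndufa7 (chr17:33824395-33824694, plus strand): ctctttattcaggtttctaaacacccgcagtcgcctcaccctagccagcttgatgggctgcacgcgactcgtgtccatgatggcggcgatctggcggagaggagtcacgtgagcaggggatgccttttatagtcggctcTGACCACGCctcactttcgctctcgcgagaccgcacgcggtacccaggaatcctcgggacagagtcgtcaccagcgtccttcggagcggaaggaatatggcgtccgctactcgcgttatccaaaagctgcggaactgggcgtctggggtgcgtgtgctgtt
Their log2 differences between Nrf2Act-hep and WT livers were 0.01 ± 0.12 (adjusted p = 0.982) for Cox6a1, -0.02 ± 0.14 (adjusted p = 0.966) for Atp5k and 0.06 ± 0.18 (adjusted p = 0.917) for Ndufa7. Ndufa7, a complex I accessory subunit, had 128, 125, 212, 168 and 209 CPM in Nrf2Act-hep livers, against 136, 196, 145, 212 and 133 CPM in WT livers, and the genotypes overlapped. The antioxidant response core was found in windows of 12 members, Ndufs5 and Cox5b among them. These 3 promoters were chosen by their motifs and, among members with those motifs, by high mean CPM. Their genotype differences played no part in the choice.

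The genes that make, supply and read the chain were taken as further lists. No gene passed the test among 17 for mitochondrial DNA upkeep, transcription and mRNA handling, 7 biogenesis regulators, 32 other assembly factors, 14 of the citric acid cycle and 14 of protein import. Of all genes tested 4.64% were called. Lrpprc, which stabilises mitochondrial mRNAs, averaged 94.7 ± 29.6 CPM in Nrf2Act-hep livers and 84.9 ± 19.8 CPM in WT livers (log2 difference 0.08 ± 0.19, adjusted p = 0.892). Yy1, a transcription factor of the biogenesis list, averaged 83.9 ± 6.23 CPM in Nrf2Act-hep livers and 75.2 ± 15.9 CPM in WT livers (log2 difference 0.14 ± 0.13, adjusted p = 0.657). Yy1 was the most abundant of the 7 biogenesis regulators and the only 1 above 0. The other 6 lay below 0, and the 7 had a median of -0.22 and a range from -0.94 to 0.14. Sco2, a copper chaperone of complex IV, averaged 149 ± 14.4 CPM in Nrf2Act-hep livers and 210.2 ± 50.9 CPM in WT livers (log2 difference -0.39 ± 0.13, adjusted p = 0.101, with adjusted p from 0.0317 to 0.554 over 22 alternatives, 1 of them under the threshold). Suclg1 of the citric acid cycle averaged 190.5 ± 7.52 CPM in Nrf2Act-hep livers and 236 ± 18.2 CPM in WT livers (log2 difference -0.29 ± 0.11, adjusted p = 0.164), with all 5 Nrf2Act-hep libraries below all WT libraries. Tomm7 of the import channel averaged 124 ± 18.9 CPM in Nrf2Act-hep livers and 121 ± 16.4 CPM in WT livers (log2 difference 0.05 ± 0.13, adjusted p = 0.893). Of the 14 import genes 13 lay above 0 and 1 below, where 50.7% of all genes tested lay above 0. Their median was 0.11 and their range -0.02 to 0.46, and this direction was not tested. Of 72 mitoribosomal genes 1 was called, where 1.86% of all genes tested were called lower and 2.79% higher. This was Mrpl58, a peptide release factor, which averaged 18.2 ± 4.18 CPM in Nrf2Act-hep livers and 28.2 ± 3.09 CPM in WT livers, a difference of -0.58 ± 0.16 (adjusted p = 0.0397). That call was lost under 14 of 22 alternatives, 8 of which leave out a library (one of Nrf2Act-hep replicates 6 to 9 or of WT replicates 1, 2, 4 and 5), with adjusted p between 0.0659 and 0.163.

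Calls did appear among genes that feed electrons to the chain beside complexes I and II or that carry its products. Of 11 tested mobile carrier and nucleotide exchange genes, 1 was higher and 2 were lower, where 2.79% of all genes tested were higher and 1.86% lower. The list was chosen with earlier results of these data known, so no conclusion is drawn from its share of calls. Gpd2, mitochondrial glycerol-3-phosphate dehydrogenase, hands electrons from cytosolic glycerol phosphate to ubiquinone. It had 40.9, 43.02, 33.7, 48.1 and 80.9 CPM in Nrf2Act-hep livers, against 84.5, 80.3, 125, 136 and 96.2 CPM in WT livers. Nrf2Act-hep replicates 6 to 9 lay below every WT library and replicate 10 reached the lowest WT values, with a difference of -0.98 ± 0.15 (adjusted p = 0.000115). The call held in every alternative except the F libraries alone (adjusted p = 0.0616). Slc25a4, the ADP/ATP carrier isoform best known from heart and muscle, had 6.39, 8.85, 9.11, 7.73 and 10.7 CPM in Nrf2Act-hep livers, against 12.2, 14.2, 19.7, 15.7 and 21.8 CPM in WT livers. The groups did not overlap, and the difference was -0.81 ± 0.20 (adjusted p = 0.0148). The call was lost without Nrf2Act-hep replicate 9 (adjusted p = 0.0723), in M libraries alone (0.296) and in F libraries alone (0.103). Slc25a5, the more abundant isoform, averaged 83.6 ± 24.5 CPM in Nrf2Act-hep livers and 80.8 ± 16.4 CPM in WT livers, a difference of 0.01 ± 0.17 (adjusted p = 0.994), and was named after its value was seen.

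Ucp2, an uncoupling protein of the inner membrane, was higher. It had 8.94, 10.9, 8.20, 12.8 and 13.5 CPM in Nrf2Act-hep livers, against 5.41, 4.18, 4.46, 9.87 and 5.35 CPM in WT livers. WT replicate 4 lay among the Nrf2Act-hep libraries and the other 4 WT libraries below all of them, with a difference of 0.90 ± 0.23 (adjusted p = 0.0223). That call was lost under 8 of 22 alternatives, among them 4 that leave out a library (one of Nrf2Act-hep replicates 7, 9 and 10, or WT replicate 2), with adjusted p between 0.0541 and 0.0843. The 12 tested genes of coenzyme Q synthesis held 2 higher and 1 lower, against the same 2.79% and 1.86% of all genes. That list too was chosen with earlier results known, and its share of calls was not tested. Coq7, the hydroxylase of the penultimate step, had 44.7, 51.9, 75.6, 42.7 and 51.3 CPM in Nrf2Act-hep livers, against 32.4, 21.8, 22.9, 33.1 and 32.96 CPM in WT livers, with no overlap and a difference of 0.85 ± 0.17 (adjusted p = 0.00334), lost only in F libraries alone (adjusted p = 0.239). Coq8b, an atypical kinase-like protein of the same pathway, had 5.53, 7.24, 6.83, 4.71 and 6.16 CPM in Nrf2Act-hep livers, against 1.35, 2.51, 3.18, 2.32 and 4.01 CPM in WT livers, also without overlap. No WT library of Coq8b reached the 4.50 CPM asked for a test, so it was tested only through the group where it was high. Its difference of 1.01 ± 0.29 (adjusted p = 0.0436) was lost under 12 of 22 alternatives, 7 of which leave out a library (one of Nrf2Act-hep replicates 6, 7, 8 and 10 or of WT replicates 1, 2 and 4), with adjusted p between 0.067 and 0.172. Its paralog Coq8a had 68.1, 57.1, 50.1, 46.4 and 36.5 CPM in Nrf2Act-hep livers, against 87.2, 79.5, 84.7, 57.5 and 86.9 CPM in WT livers. Nrf2Act-hep replicates 7 to 10 lay below every WT library, and the difference of -0.68 ± 0.14 (adjusted p = 0.00537) was lost in M libraries alone (0.153) and in F libraries alone (0.0636).

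**Figure D5:**
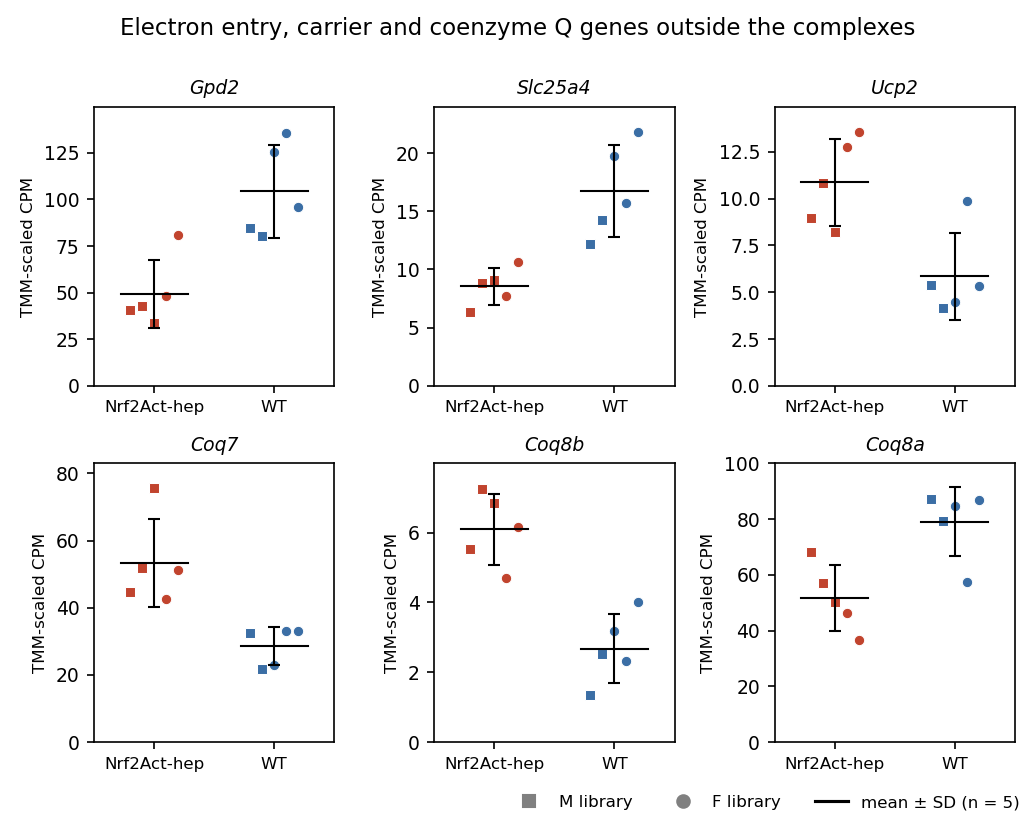
TMM-scaled CPM of the 6 called genes of electron entry, carriers and coenzyme Q synthesis in each library (squares M, circles F), with the mean ± SD of 5 libraries per genotype. Slc25a4, Coq7 and Coq8b do not overlap between Nrf2Act-hep and WT livers, while 1 library of Gpd2, Ucp2 or Coq8a reaches the other genotype. Coq8b was tested only because of its Nrf2Act-hep libraries, where it was higher.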

How the data were processed

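The authors deposited 1 table of CPM values (counts scaled to a common total in each library) from QuantSeq FWD 3′ libraries read as 75-base single reads. The submitters' processing notes name the build GRCm38, and neither aligner nor read counter is named in the sources used here. Every deposited CPM value was a whole multiple of a 1-read step (100% within 0.01 read), so reads were recovered for depths and count tests. Genes with at least 10 reads at the median depth (4.50 CPM) in 5 libraries and 15 reads in all were kept (8075). Values were TMM-scaled (edgeR 4.0.16) and tested as log2(CPM + 1) with limma 3.58.1 (variance trend, robust), with the letter M or F as a covariate or in an interaction. Fold changes on this scale understate changes of low genes. Adjusted p-values follow Benjamini-Hochberg over all genes tested, with a threshold of 0.05. edgeR's quasi-likelihood test and DESeq2 1.42.0 were run on recovered reads as alternatives. Errors beside log2 differences are standard errors, and those beside CPM are SD over 5 libraries. The tests were run on simulated reads for 8075 genes, where 3.27% of genotype calls and 6.38% of interaction calls were false. Symbols came from GENCODE models (18799 of 18869 identifiers). Near-identical copies were sought with blastn 2.17.0 in the last 300 bases of each transcript, at 95% identity over 75 bases. Any other annotated gene counted as a match, and overlapping genes were not left out. The members and lists were chosen with earlier results of these data known. Named genes were all measured mitochondrial mRNAs, per complex the 2 most abundant nuclear members and the 1 with the largest change each way, up to 4 called genes of each other list or its most abundant one, and Nqo1, Gclc, Nfe2l2 and Keap1. Of the genes this rule gives, NRF2 targets other than Nqo1 and most cell markers are counted without printed group means. Genes named beyond the rule illustrate isoforms, motifs or copies and were chosen after their values were seen. The values of 1 tested member are not reported here, though it stays in all counts and sums.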

Additional observations from a re-analysis of the deposited data

Results flagged for a closer look

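With 5 libraries per genotype, 126 groups of values (63 genes in Nrf2Act-hep or WT livers) were checked for a library far from the other 4, and 10 were found. Chance gives about 1 in 20. For 2 members a library stood below the rest of its genotype: Cox5b had 76.0 CPM in Nrf2Act-hep replicate 9, against 97.5 to 102 CPM in the other 4, and Atp5d had 153 CPM in WT replicate 2, against 166 to 171 CPM. The large mitochondrial ribosomal RNA mt-Rnr2 had 126137 CPM in Nrf2Act-hep replicate 7, against 144591 to 151691 CPM. Among genes around the chain, Ucp2 had 9.87 CPM in WT replicate 4, against 4.18 to 5.41 CPM, and Coq7 had 75.6 CPM in Nrf2Act-hep replicate 8, against 42.7 to 51.9 CPM. Coq8a had 57.5 CPM in WT replicate 4, against 79.5 to 87.2 CPM, and Mrpl58 had 25.4 CPM in Nrf2Act-hep replicate 10, against 15.1 to 17.7 CPM. Of the genes that check the labels or the cells, Cbr3 had 0.676 CPM (1 read) in WT replicate 1, against 0 in the other 4, Apoa1 had 3764 CPM in Nrf2Act-hep replicate 9, against 4889 to 5337 CPM, and Nfe2l2 had 48.0 CPM in Nrf2Act-hep replicate 10, against 37.4 to 40.0 CPM. Neither Cox5b nor Atp5d was called without the library named (each alternative called 0 members).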

How the results depend on the processing

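No member was called for genotype under any of 22 alternatives, with adjusted p at least 0.0512 and 0 to 10 members at an unadjusted p under 0.05. For the interaction none was called under 15 alternatives, with adjusted p at least 0.386. No log2 difference of a named gene reversed among those called. On the deposited scale without TMM the log2 differences of summed levels were 0.095 for all nuclear members, 0.084 for complex I, 0.077 for complex II, 0.045 for complex III, 0.147 for complex IV and 0.082 for complex V, against -0.04, -0.05, -0.05, -0.09, 0.02 and -0.05 with TMM. The median of all genes moved to 0.13 on that scale. The complex V sum gave 0.036 in M libraries alone and -0.113 in F libraries alone. These alternatives for summed levels were chosen after seeing the data. Over all genes 375 were called for genotype, 245 without WT replicate 1, 248 without Nrf2Act-hep replicate 7, 250 in M libraries and 130 in F libraries alone. For the interaction 2 of all genes were called, and 1 to 12 when one library was left out or 18 with no filter. Depth limits the scarce members most: Ndufs5 and Atp5s, both below 10 CPM, had intervals past 1 on the log2 scale. No paired analysis was possible because the replicate numbers run from 1 to 10 and are not shared between genotypes.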

Other observations

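Ppargc1b encodes a coactivator of mitochondrial biogenesis and is singled out here after its values were seen. In F libraries it had 11.1 and 5.75 CPM in Nrf2Act-hep livers, against 33.8, 32.5 and 30.3 CPM in WT livers. In M libraries it had 14.1, 11.3 and 17.3 CPM in Nrf2Act-hep livers, against 18.2 and 10.9 CPM in WT livers. The difference between the genotype effects in F and M libraries had an adjusted p of 0.099 in limma's interaction fit, over the threshold. Ppargc1b was not called in limma's genotype test over all libraries either, where the lowest adjusted p of the 7 biogenesis regulators was 0.165.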
